A study of Homo sapiens with 4 samples.

Results

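Sites named for NEDD4, CPNE4 or LIPE-AS1 were taken from the 4 lists of binding sites, leaving out the mtDNA. These 3 genes held 9 of the 2341 listed sites, 1 site per gene in each of the 3 GTPBP8 libraries and 0 in the AUH library. The genes had been chosen by their read numbers, which were high in every GTPBP8 library, so that the read levels below describe the sites and were not tested. The lists were made by fPAR-CLIP in HEK293 T-REx cells, a human embryonic kidney line, from 3 biological replicates of doxycycline-inducible GTPBP8::FLAG and from 1 library of AUH::V5, with immunoprecipitation from whole cell lysate on beads against the tag. All groups were given doxycycline (50 ng/ml, 48 h), 4-thiouridine (4SU, 100 µM, 16 h) and UV light of 312 nm (5 min), and the RNA was trimmed with RNase T1. Cells without the tagged protein, or without doxycycline, are not among the samples analysed here, so no value below has a background library.

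In fPAR-CLIP, 4SU that was crosslinked to a protein is read as C in place of T, and the lists give, as a mark of crosslinking, which fraction of the reads at each site had such a T-to-C conversion. A read is placed in the genome where its sequence fits, so short reads from RNAs with many genomic copies, such as tRNAs and the small nuclear RNAs of the spliceosome, can fit several places. NEDD4 is a HECT-type E3 ubiquitin ligase, which tags membrane proteins for degradation. CPNE4 belongs to the copines, proteins that bind phospholipids in the presence of calcium. LIPE-AS1 is a long non-coding RNA read from the strand opposite LIPE, the gene of hormone-sensitive lipase.

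The sequences of the member sites are shown because the resemblance to other RNAs lies in them. Each is written 5′ to 3′ on the strand of its site, in GRCh38. The NEDD4 site (chr15:55853460-55853485, minus strand) is set beside the 4 listed loci that resembled it and had a site in every GTPBP8 library. These lay on chromosome 17 (chr17:38854848-38854874, plus strand), chromosome 7 (chr7:85091963-85091988, plus strand), chromosome 6 (chr6:9012399-9012425, minus strand) and chromosome 2 (chr2:53825895-53825920, plus strand). The sites were placed without gaps. Capitals mark, in the NEDD4 site, its first base and, in the others, the bases that differ from NEDD4 in that placement. The sites on chromosomes 17, 6 and 2 start 1 base before the NEDD4 site.
NEDD4: Ctctcggccttttggctaagatcaag
chr17 (+): cTtctcggccttttggcCaagatcaag
chr7 (+): ctTCTggccttttggctaagatcaag
chr6 (-): cTtTtcggccttttggctaagatcaag
chr2 (+): cTtctcggcctttCggctaagatcaa

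The CPNE4 site (chr3:132229144-132229171, minus strand) is set beside its closest match among the RefSeq promoter windows, at LINC02090 (chr17:16988119-16988146, minus strand). Capitals mark the 1 base at which the 2 sequences differ, T16G counted from the 5′ end of the CPNE4 site.
CPNE4: gggggtgtagctcagTggtagagcattt
LINC02090: gggggtgtagctcagGggtagagcattt

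The LIPE-AS1 site (chr19:42646880-42646900, plus strand) is set beside a stretch of a mitochondrial site in the AUH list, mtDNA position 4312 to 4330 on the plus strand, which lies in TRNI, the gene of the mitochondrial tRNA for isoleucine. Capitals mark the differences.
LIPE-AS1: cCtaaacTcTcttatttctac
TRNI: cTtaaacCcCcttatttct

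The GTPBP8 lists held 440, 716 and 426 sites in replicates 1, 2 and 3, of which 417, 695 and 398 were nuclear. Site reads summed to 402701, 627603 and 403172, the depths used here, and counts per 1000000 of them are given as CPM. The AUH list held 759 sites with 9684 reads. The median nuclear GTPBP8 site had 8, 8 and 9 reads, and no site had fewer than 5. Reads at a site include PCR copies, so the 95% Wilson intervals cover counting error only.

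The 3 sites together took 1951, 2412 and 2310 reads, which were 7.31%, 7.38% and 7.43% of the nuclear reads. The NEDD4 site had 941, 1125 and 1176 reads, or 2337, 1793 and 2917 CPM, with a mean of 2349 ± 562 CPM (SD, n = 3). Replicate 3 was the highest and replicate 2 the lowest, and the site ranked 6 among nuclear sites in every replicate. The CPNE4 site had 580, 900 and 592 reads, or 1440, 1434 and 1468 CPM (1448 ± 18.3, SD, n = 3). The LIPE-AS1 site had 430, 387 and 542 reads, or 1068, 617 and 1344 CPM (1010 ± 367, SD, n = 3). The libraries lay close together at CPNE4 and were spread at LIPE-AS1, where replicate 2 was lowest as at NEDD4.

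Since the sites differ in length, their levels were also set per nucleotide of the site. NEDD4 had 88.9 ± 19.6 CPM per nt, CPNE4 50.5 ± 1.67 and LIPE-AS1 47.3 ± 17.4 (SD, n = 3). The 3 NEDD4 values, 68.9 to 108, lay above all values of both other sites. CPNE4 values of 49.4 to 52.4 lay inside the LIPE-AS1 range of 29.4 to 64.0, so per nucleotide these 2 sites did not differ beyond their spread. In CPM, all CPNE4 values (1434 to 1468) lay above all LIPE-AS1 values (617 to 1344).

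**Figure D1:**
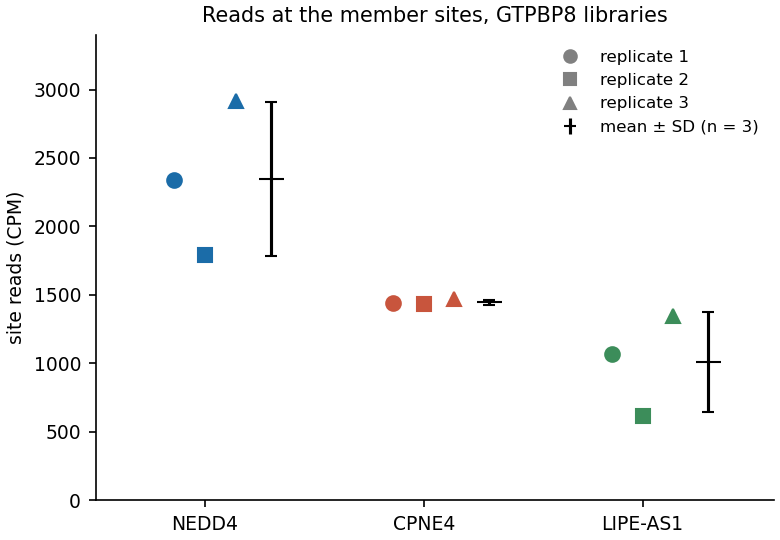
Site reads in CPM (linear axis from 0) for the 3 sites, with a point for each GTPBP8 replicate and the mean ± SD of 3 libraries beside them. CPNE4 values nearly coincide at 1434 to 1468 CPM, while NEDD4 runs from 1793 to 2917 and LIPE-AS1 from 617 to 1344.

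The likeness of a gene to a member was measured as the Euclidean distance of log2 CPM over the 3 GTPBP8 libraries, among the 50 nuclear genes with a site in each. Closest to NEDD4 were RPPH1, the RNA of RNase P, at 0.63, VTRNA1-2, a vault RNA, at 0.87 and CPNE4 at 1.25. Closest to CPNE4 were VTRNA1-2 at 0.50, NEDD4 at 1.25 and LIPE-AS1 at 1.30. Closest to LIPE-AS1 were CPNE4 at 1.30, MTRNR2L10, a nuclear gene related to the mitochondrial 16 S rRNA gene, at 1.36 and VTRNA1-2 at 1.38. This likeness uses the read levels, by which the members were chosen.

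Of 8 other ligases of the NEDD4 family, 8 other copines and LIPE itself, 0 had a site in any of the 4 lists. Over all RefSeq protein-coding genes, 4.64% (931 of 20056) were named for a nuclear site in a list, so a count of 0 among so few genes is no result about the families. A list holds called sites only, so a gene without a site may still have had reads. In the AUH list, 0 sites were named for a member and 0 overlapped a member by position, hence no AUH level could be set against the GTPBP8 levels.

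The limits of the sites recurred to the nucleotide or nearly so. The NEDD4 site ended at 55853485 in replicates 1 and 2 and at 55853486 in replicate 3, always from 55853460. The CPNE4 site ran from 132229144 to 132229172 in replicates 1 and 2 and to 132229171 in replicate 3. The LIPE-AS1 site ran from 42646880 to 42646901 in replicate 1 and to 42646900 in the other two. Each end thus moved by at most 1 nt. Sites overlapped in both other replicates made up 15.1%, 9.06% and 15.8% of the nuclear sites, and recurrence was part of how the members were picked.

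The annotation of these positions differed between the lists and RefSeq. The lists placed the NEDD4 site in an intron, and in RefSeq (GRCh38.p14) it lay inside NEDD4 (chr15:55826917-55993612). The LIPE-AS1 site, called antisense in the lists, lay inside LIPE-AS1 (chr19:42397148-42652355). The site called an intron of CPNE4 lay 189538 nt outside the RefSeq span of CPNE4 (chr3:131533569-132039606). There, 28 nt of it overlapped TRC-GCA6-1 (chr3:132229100-132229171), a 72-nt gene for a cysteine tRNA. The site reached the highest position of the tRNA gene, 132229171, which is the 5′ side as read on the minus strand of the site. It is called the CPNE4 site here after the lists.

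Few of the NEDD4 reads and nearly all of the CPNE4 and LIPE-AS1 reads were converted. At NEDD4, 149 of 941, 185 of 1125 and 187 of 1176 reads were converted, or 15.8% (interval 13.6 to 18.3), 16.4% (14.4 to 18.7) and 15.9% (13.9 to 18.1), a mean of 16.1% ± 0.335 (SD, n = 3). The median nuclear site had 87.5%, 90.9% and 87.5% converted reads. The difference of NEDD4 from that median was -72.6 percentage points ± 1.64 (SD), lower in 3 of 3 libraries (exact two-sided sign-flip test, p = 0.25, adjusted p = 0.375). Against nuclear sites with at least 10 reads it was -54.5 points, and against nuclear sites called introns -83.9 points. Sites with under 20% converted reads were 1.92%, 1.29% and 3.27% of the nuclear sites. The median nuclear site had only 8, 8 and 9 reads, and this share was not computed among sites as deep as NEDD4.

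At CPNE4, 559 of 580, 852 of 900 and 543 of 592 reads were converted, or 96.4% (interval 94.5 to 97.6), 94.7% (93.0 to 96.0) and 91.7% (89.2 to 93.7), a mean of 94.3% ± 2.36 (SD, n = 3). The difference from the nuclear median was 5.62 percentage points ± 2.83 and positive in 3 of 3 libraries (exact two-sided sign-flip test, p = 0.25, adjusted p = 0.375). Against the nuclear sites called introns it turned to -5.74 points, and against nuclear sites with at least 10 reads it was 24.1 points. At LIPE-AS1, 424 of 430, 385 of 387 and 542 of 542 reads were converted, or 98.6% (97.0 to 99.4), 99.5% (98.1 to 99.9) and 100% (99.3 to 100). The mean of 99.4% ± 0.705 (SD, n = 3) was 10.7 points ± 1.99 above the nuclear median and above it in 3 of 3 libraries (exact two-sided sign-flip test, p = 0.25, adjusted p = 0.375). Against the sites called introns the difference shrank to 0.289 points, and against sites with at least 10 reads it was 29.2 points. The size of the differences at NEDD4, CPNE4 and LIPE-AS1, and at CPNE4 also the sign, thus depended on the sites they were set against. With 3 libraries this test cannot give a p under 0.25, and p-values were adjusted over 12 tests, those of 4 measures at 3 sites.

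**Figure D2:**
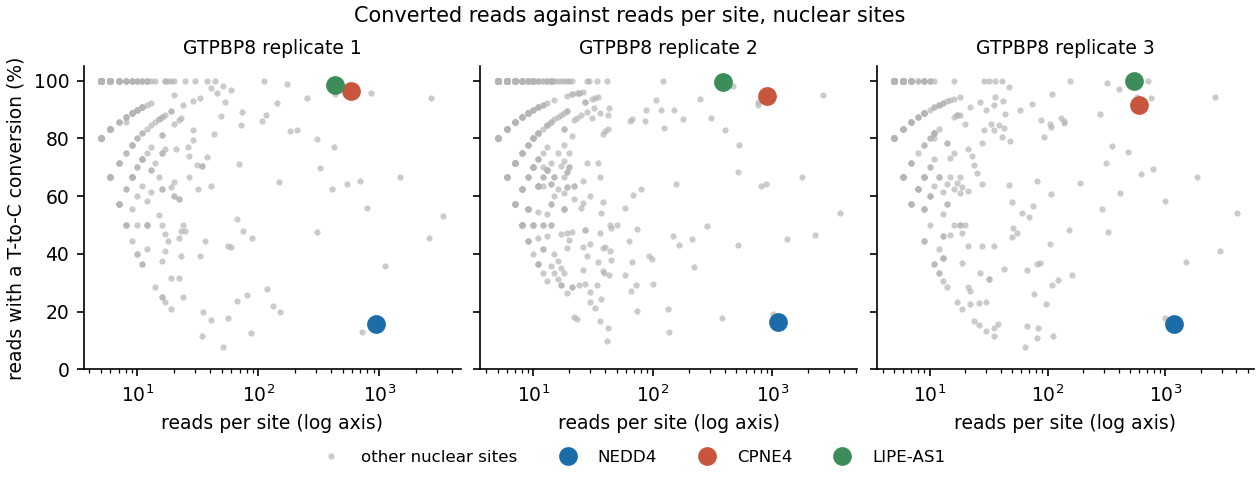
Share of reads with a T-to-C conversion (linear axis, %) against reads per site (log axis) for the nuclear sites of each GTPBP8 replicate, with the 3 members in colour. NEDD4 sits at 15.8% to 16.4% at the lower right, and CPNE4 and LIPE-AS1 at 91.7% or above at the upper right of every panel.

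The reads were next split by their mismatches to the genome, as the lists count them. NEDD4 reads mostly had none, 762, 902 and 950 reads or 81.0%, 80.2% and 80.8% (80.6% ± 0.417, SD, n = 3). The median nuclear site had 6.19%, 0% and 3.24% of reads without a mismatch. Reads with 1 mismatch other than T-to-C were 15, 9 and 13 at NEDD4, and 1.59%, 2.58% and 2.21% had 2 or more mismatches. Most reads there thus matched the genome exactly. The lists counted 179, 242 and 237 conversions, or 0.190, 0.215 and 0.202 per read, at 4, 3 and 4 of the 8 T in the site. The converted reads equalled the reads with a single conversion, 149, 185 and 187, while the conversions exceeded them by 30, 57 and 50. At NEDD4 the converted share may thus leave out reads with 2 or more mismatches. At the other sites it did count such reads. CPNE4 had 559, 852 and 543 converted reads but 0, 1 and 0 with a single conversion, and LIPE-AS1 had 424, 385 and 542 but 1, 0 and 3. With all reads of 2 or more mismatches counted as converted at every site, NEDD4 had 17.4%, 19.0% and 18.1%, and the difference from the nuclear median was -77.2 points. CPNE4 changed sign to -0.101 points and LIPE-AS1 had 5.08 points under this count, which was chosen after seeing the data.

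CPNE4 had the opposite make-up. Only 2, 2 and 2 of its reads had no mismatch, and 0, 1 and 0 reads had a single T-to-C conversion and no other mismatch. Reads with 2 or more mismatches were 565, 856 and 547, or 97.4%, 95.1% and 92.4% (95.0% ± 2.51, SD, n = 3). The lists counted 565, 856 and 547 conversions, as many as there were reads with 2 or more mismatches, at 3 of the 8 T. If the lists count every conversion, these reads held at least as many mismatches of other kinds. The reads with 1 mismatch other than T-to-C, 13, 41 and 43, made up most of the remainder. They were 2.24%, 4.56% and 7.26% of reads, against a nuclear median of 0, in 3 of 3 libraries higher (exact two-sided sign-flip test, p = 0.25, adjusted p = 0.375).

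At LIPE-AS1 too, reads with 2 or more mismatches were 429 of 430, 387 of 387 and 539 of 542, or 99.8%, 100% and 99.4%. The lists counted 858, 772 and 1080 conversions, or 2.00, 1.99 and 1.99 per read, at 4, 2 and 2 of the 10, 9 and 9 T in the site. The median nuclear site had 1, 1 and 0.995 conversions per read. Whether the reads held mismatches of other kinds beside the conversions is not given in the lists. No read at this site was without a mismatch, 0 reads had 1 mismatch other than T-to-C, and 1, 0 and 3 reads had a single conversion.

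Sites at which at least 90% of reads had 2 or more mismatches were 15.3%, 12.8% and 12.6% of the nuclear sites, CPNE4 and LIPE-AS1 among them. Among the nuclear sites with at least 100 reads, those with 2 or fewer mismatch-free reads were 42.4%, 35.1% and 33.3% (14 of 33, 13 of 37 and 13 of 39). The largest sites of RPPH1 and VTRNA1-2, the RNAs closest in level, had 35.3% and 20.6% of reads without a mismatch and 53.1% ± 6.99 and 66.1% ± 3.06 converted reads (SD, n = 3). They lay between NEDD4 and the other two members in both shares.

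**Figure D3:**
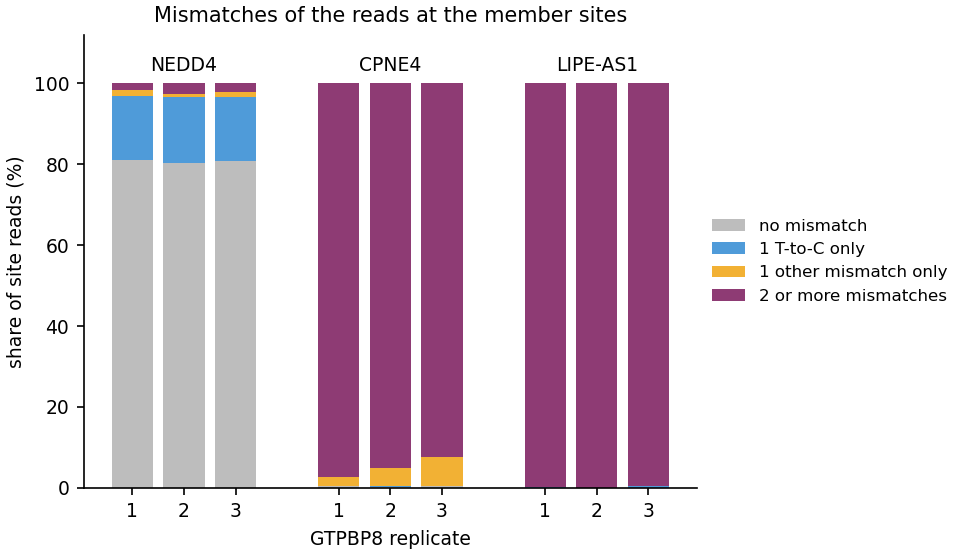
Share of the reads of each member site (%, bars from 0 to 100) by mismatch class, for GTPBP8 replicates 1 to 3. The gray class without a mismatch fills 80.2% to 81.0% of the NEDD4 bars, and the class with 2 or more mismatches fills at least 92.4% of the CPNE4 and 99.4% of the LIPE-AS1 bars.

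Reads per distinct read sequence, which rise with PCR copies, were 1.74, 1.81 and 1.69 at NEDD4, 1.96, 2.27 and 1.76 at CPNE4 and 1.94, 2.07 and 1.95 at LIPE-AS1. Medians of the nuclear sites were 1.6, 1.87 and 1.5. NEDD4 was above the median in 2 of 3 libraries (difference 0.0899 ± 0.134, exact two-sided sign-flip test, p = 0.5, adjusted p = 0.667). CPNE4 (0.340 ± 0.0760) and LIPE-AS1 (0.331 ± 0.121) were above it in 3 of 3 (exact two-sided sign-flip test, p = 0.25, adjusted p = 0.375). All 3 differences turned negative against the mean of the nuclear sites, to -0.325, -0.0784 and -0.0874, and against sites called introns, to -0.474, -0.228 and -0.213.

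RNase T1 cuts after G, and the lists give a share of reads that end in G. This share was 0 at NEDD4 and LIPE-AS1 in every library and 99.0%, 99.4% and 99.0% at CPNE4. The column does not describe the 3′ end on the minus strand, however. Sites ending in G on the plus strand had a median of 100% (n = 429 sites), and sites ending in G on the minus strand a median of 0% (n = 413 sites). NEDD4 and CPNE4 are on the minus strand, so that for these genes the column tells nothing of the RNase T1 end. Of the 3 only LIPE-AS1, which ends in C or, in replicate 1, in T, can be read by it, and its difference from the median of plus-strand sites was -86.4 points, a comparison chosen after seeing the data.

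Sites with a near-identical sequence were found for NEDD4 alone. A site at another place counted as near-identical in the same library with at most 2 mismatches over its whole overlap with the member, placed without gaps and at least 18 nt long. By this rule NEDD4 had 5, 8 and 0 such sites with 1132, 1640 and 0 reads, and CPNE4 and LIPE-AS1 had 0 in every library. Of all nuclear sites, 6.24%, 4.32% and 5.78% had such a site. The 0 in replicate 3 came with the base by which its NEDD4 site was longer at the 5′ end, since with up to 4 mismatches the counts were 7, 10 and 7, with 1560, 2213 and 1965 reads. At that limit 11.8%, 11.4% and 14.8% of the nuclear sites had a match, CPNE4 had 0, and LIPE-AS1 had 0, 1 and 1, a site in SMAD2 with 19 and 32 reads.

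Over the 3 libraries, 14 other loci resembled the NEDD4 site, with up to 4 mismatches or with up to 2 when T against C was taken as equal. Each of these 2 rules gave 7, 10 and 7 sites in replicates 1, 2 and 3. Of all nuclear sites, 37.6%, 34.7% and 35.4% had a match by the second rule. The lists named 2 of them for RNU2-13P and RNU2-4P, pseudogenes of the U2 small nuclear RNA, which pairs with the branch point of introns in the spliceosome, and 9 had no annotation. The others were named for AQP4-AS1, SLC6A15 and SH3BP5. Substitutions were counted without gaps, from 1 at the 5′ end of the 26-nt NEDD4 site, with the base of NEDD4 first. In this placement 13 of the 14 loci carried C1T, and 8 of the 14 differed from NEDD4 by T against C pairs alone. How often the matches of other sites differ by such pairs alone was not computed. The chromosome 7 site, counted among those 8, can also be read with a gap, as the start of the chromosome 17 site with 1 c left out before ggcc. Read that way, it carries C1T and lacks a base, so it differs by more than T against C pairs. SH3BP5 differed by C1T and nothing else, and had 6 reads in replicate 2.

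The 4 relatives that were listed in every library differed in conversion. The chromosome 17 locus (C1T T17C) had 717, 1017 and 984 reads, of which 13.1%, 19.2% and 17.7% were converted and 81.8% ± 3.61 (SD, n = 3) had no mismatch. The chromosome 2 locus (C1T T13C) had 81, 101 and 110 reads, 28.2% ± 2.03 converted and 71.5% ± 2.27 without a mismatch (SD, n = 3). Most reads of both loci, as of NEDD4, had no mismatch.

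The chromosome 7 locus (C3T T4C C5T when placed without gaps) had 421, 528 and 484 reads. Of these, 77.2%, 77.8% and 75.2% were converted and 10.6% ± 2.42 (SD, n = 3) had no mismatch. The chromosome 6 locus (C1T C3T) had 307, 402 and 349 reads, of which 79.8%, 83.1% and 77.4% were converted and 5.73% ± 2.55 (SD, n = 3) had no mismatch. The converted shares of both lay above those of NEDD4 and the other two relatives in every library. RNU2-13P (C1T T22C) had 24 reads in replicate 2, with 29.2% converted, and RNU2-4P (C1T G7T) had 5 reads in replicate 3, with 80% converted. The 10 relatives that were not listed in every library, these 2 included, had 5 to 66 reads and mean converted shares of 27.3% to 100%.

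Summed over NEDD4 and its relatives, the libraries held 2501, 3338 and 3141 reads, or 6211, 5319 and 7791 CPM. NEDD4 held 37.6%, 33.7% and 37.4% of them. Over this sum 34.2%, 36.4% and 33.7% of reads were converted, above the share at NEDD4 alone in every library. From which of these loci, or from which other copy, the reads were transcribed was not tested.

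**Figure D4:**
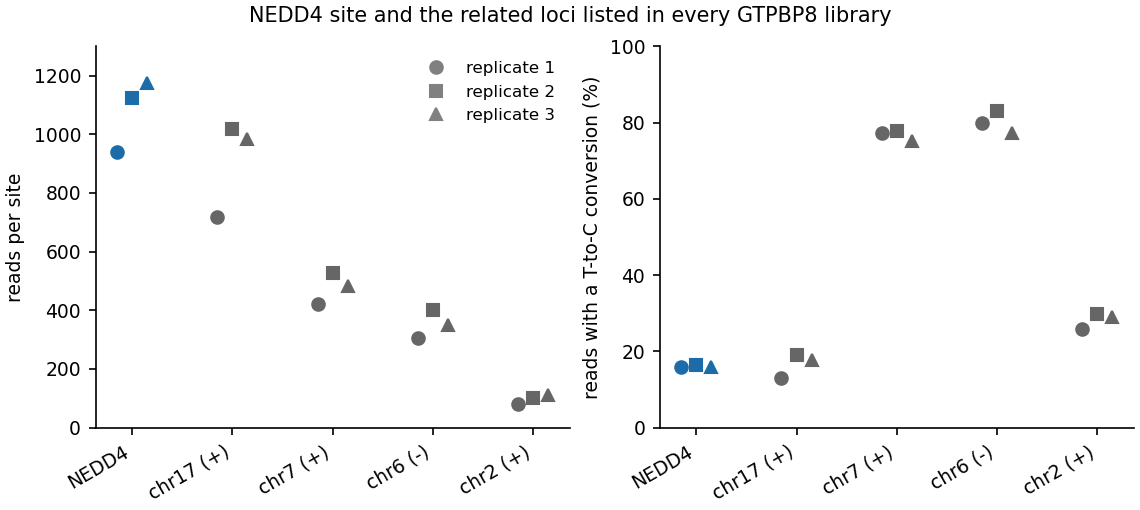
Reads per site (left, linear axis from 0) and share of converted reads (right, %) at NEDD4 (blue) and the 4 related loci listed in every GTPBP8 library (gray), named by chromosome and strand, with 1 symbol per replicate. NEDD4, the chromosome 17 and the chromosome 2 locus lie at 29.7% or below, and the chromosome 7 and 6 loci at 75.2% or above.

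The CPNE4 site had no near-identical site in the lists, but other nuclear sites overlapped RefSeq tRNA genes, 8, 9 and 16 in replicates 1, 2 and 3. Any overlap counted here, and the strand was not checked. Reads with 2 or more mismatches had a median of 3.26%, 8.18% and 3.87% over those sites and reached at most 8.19%, 22.2% and 16.7%. CPNE4, at 92.4% or above, lay outside this range in every library. Those with at least 100 reads (5, 4 and 6 sites) had 35.7% to 66.5%, 46.7% to 66.7% and 37.3% to 66.5% converted reads, below the 91.7% to 96.4% of CPNE4. Of the 35116 RefSeq promoter windows of 300 nt, 1 held a copy of the CPNE4 sequence within 2 mismatches, that of LINC02090 printed above. The windows cover promoters only, so counts over them, here and below, are not counts of copies in the genome. The kind of mismatch that accompanied the conversions is not given in the lists, and whether the reads came from TRC-GCA6-1 or from another tRNA gene was not tested.

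The NEDD4 sequence too had a copy within 2 mismatches in 1 of these windows, at LOC105369289 (chr9:26676015-26676040, minus strand, C1T C5T), and LIPE-AS1 had 0. The LIPE-AS1 site resembled the mitochondrial site of the AUH list printed above, which had 73 reads, 72.6% of them converted. The stretch of 19 nt differed by C2T T8C T10C, counted from the 5′ end of the LIPE-AS1 site with its base first, and all 3 are T against C pairs. Their direction differs, since T8C and T10C have T in the LIPE-AS1 site and C2T has C there. A T-to-C conversion is listed where the genome has T, so none could be listed at C2T. Conversions at the LIPE-AS1 site were 2.00, 1.99 and 1.99 per read, at 4, 2 and 2 T in replicates 1, 2 and 3. TRNI (mtDNA 4263 to 4331) holds the stretch near its end. Matches of this kind, over at least 18 nt to a mitochondrial AUH site with T against C taken as equal, were found for 1.44%, 1.29% and 2.01% of the nuclear GTPBP8 sites. None of the mitochondrial sites in the GTPBP8 lists matched LIPE-AS1 in this way. With T against C taken as equal and up to 2 other mismatches, LIPE-AS1 also matched 6, 4 and 3 nuclear sites of its own libraries, with 97, 26 and 30 reads in all. Of the nuclear sites, 37.6%, 34.7% and 35.4% had such a match, so these matches are no result about LIPE-AS1. The lists do not say at which T the conversions lay, and whether these reads came from LIPE-AS1 or from TRNI was not tested.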

How the data were processed

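The assay was fPAR-CLIP of HEK293 T-REx cells (GTPBP8::FLAG, 3 replicates; AUH::V5, 1 library). The authors processed reads with Bcl2fastq, Cutadapt, PARpipe and PARalyzer on hg38. The deposited GTPBP8 lists hold unnormalized counts of reads, distinct reads, conversions and mismatch classes per site, and shares as a fraction. In the deposited AUH list, converted reads are expected counts and the share is a fraction. The AUH column of total reads was not used, and reads were converted reads over the fraction, rounded. Starts were set to 1-based positions. The meaning of the mismatch classes was taken from the values: at all 1582 GTPBP8 sites they summed to no more than the reads. At 136 of these sites the list gives fewer conversions than converted reads, so the columns are not fully reconciled.

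The members and lists were chosen with earlier results of these data known. Genes named are the members, genes of near-identical sites, the 3 genes nearest each member in log2 CPM, and fixed family lists. RNU2-4P and SMAD2 entered through the limit of 4 mismatches and were chosen after their values were seen. CPM is per total of site reads (402701, 627603 and 403172; AUH 9684). The share at a member minus the median of other nuclear sites was tested by exact sign-flips over libraries, with Benjamini-Hochberg adjustment. Alternatives were other sets of sites, other denominators, other mismatch limits and each replicate left out. Sequence search was tested on simulated data, where 200 of 200 planted copies and 0 of 2000 shuffled sequences were found. The copies were planted whole with 2 substitutions, so at a limit of 2 mismatches they could not be missed. Copies cut at the limits of a site were not simulated. RefSeq tables (GRCh38.p14) gave gene spans and promoters. Tables were handled with pandas 2.3.3 and numpy 2.4.6 in Python 3.11.15, intervals computed with scipy 1.17.1 and figures drawn with matplotlib 3.10.9. Reads outside sites are not analysed here.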

Additional observations from a re-analysis of the deposited data

How the results depend on the processing

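Member levels in CPM moved with the quantity counted. From distinct reads they were 3965 (NEDD4), 2154 (CPNE4) and 1507 (LIPE-AS1), per 1000000 nuclear reads 35840, 22775 and 15130, and with near-identical sites added NEDD4 had 4157. The mean number of near-identical sites for NEDD4, 4.33, became 0 with no mismatch allowed, 8 with 4 mismatches and 8 with T against C as a match, and 2.5 to 6.5 with 1 replicate left out (2.5 without replicate 2). For LIPE-AS1, 0 became 0.667 with 4 mismatches and 4.33 with T against C as a match.

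Against sites called introns, the conversion difference of CPNE4 reversed to -5.74 points, and reads per distinct read to -0.474 (NEDD4), -0.228 (CPNE4) and -0.213 (LIPE-AS1). With reads of 2 or more mismatches counted as converted, the conversion difference of CPNE4 reversed to -0.101 points. Against the mean of nuclear sites the differences in reads per distinct read were -0.325, -0.0784 and -0.0874. Against mitochondrial sites, the share with 1 other mismatch reversed to -3.59 points (NEDD4) and -0.0724 points (CPNE4). The causes were not tested. Over all alternatives other than leaving out a replicate, 41 values kept their sign and lay within 1.5 times the reported value, 24 kept their sign but lay beyond it, 15 were 0 in both, 14 went from 0 to another value, 10 changed sign and 1 became 0. The conversion difference from mitochondrial sites was -42.0 (NEDD4), 36.2 (CPNE4) and 41.3 points (LIPE-AS1). The share with 2 or more mismatches in place of 1 other mismatch differed by 94.3 (CPNE4) and 99.1 points (LIPE-AS1). The end-G share of LIPE-AS1 went from 0 to -86.4 points on its strand. With 1 replicate left out, 3 values moved beyond 1.5 times, among them reads per distinct read at NEDD4, 0.0375 to 0.165 (without replicates 3 and 2). Comparisons within the same strand and counts by 2 or more mismatches were chosen after seeing the data. No paired analysis was possible because there is 1 AUH library, without a replicate number, and it lists no member site. For the same reason the alternatives for GTPBP8 against AUH were not run. The 3 libraries limit every p to 0.25 or more, and the sites are those of a list with a minimum of 5 reads.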
